A study of Mus musculus with 12 samples.

Results

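The lipid and xenobiotic sensing receptors of the liver were followed by name through the deposited counts. They are Ppara, Ppard, Pparg, Rxra, Nr1h2 (LXRB), Nr1h3 (LXRA), Nr1h4 (FXR), Nr1i2 (PXR), Nr1i3 (CAR) and Ahr, 10 of the 55471 gene IDs in the table. The rule that chose them names the genes and uses no expression value. All 10 passed the filter on low counts and stayed among the 13866 genes tested. The samples were livers of C57BL/6 mice, and 4 groups held 3 samples each. SD mice had a standard diet, and the other groups had the MASLD diet, named for metabolic dysfunction-associated steatotic liver disease, in which hepatocytes store excess fat. MASLD mice were labelled with that diet and no treatment, and the 0.1x and 1x groups had the MASLD diet with Aza-TdC at the relative dose in the name. Aza-TdC, a nucleoside analogue, lowers DNMT1, the enzyme that keeps DNA methylated at CG dinucleotides after replication. The labels used here give no age, diet composition or absolute dose, nor whether each sample is a separate animal. The p-values below therefore measure only the sample-to-sample spread, some of which may be technical.

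Except for Ahr, these receptors are nuclear receptors, transcription factors that a small fat-soluble ligand switches on. Fatty acids and their derivatives bind the PPARs, oxysterols the LXRs, bile acids FXR, and drugs and steroids PXR and CAR. Each of these sits on DNA as a pair with RXRA or a related RXR, while AHR, a basic helix-loop-helix factor that binds dioxins and tryptophan metabolites, pairs with ARNT. In liver PPARA drives fatty acid oxidation in fasting, PPARG is low in the healthy organ and is known to increase with steatosis, the LXRs drive sterol export and lipid synthesis, FXR holds back bile acid synthesis, and PXR, CAR and AHR induce drug-metabolising enzymes.

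Ppara, Pparg and Nr1i3 differed between the diets, and the DNA just before their start sites is printed because DNMT1 acts on CG dinucleotides. The windows are the 250 bases before each RefSeq start site, on the gene's strand from 5′ to 3′ (build GRCm38.p6), and the capitals mark CG. The Ppara window is chr15:85735526-85735775, plus strand. The Pparg windows are chr6:115360894-115361143, chr6:115362099-115362348 and chr6:115421816-115422065, all plus strand. The Nr1i3 window is chr1:171213720-171213969, plus strand.
Ppara: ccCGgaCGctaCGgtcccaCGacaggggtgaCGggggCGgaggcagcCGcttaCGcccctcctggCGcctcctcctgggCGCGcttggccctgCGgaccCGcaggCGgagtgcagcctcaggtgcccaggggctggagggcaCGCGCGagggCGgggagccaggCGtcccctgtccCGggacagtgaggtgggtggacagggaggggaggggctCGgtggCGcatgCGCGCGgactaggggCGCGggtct
Pparg start site 1: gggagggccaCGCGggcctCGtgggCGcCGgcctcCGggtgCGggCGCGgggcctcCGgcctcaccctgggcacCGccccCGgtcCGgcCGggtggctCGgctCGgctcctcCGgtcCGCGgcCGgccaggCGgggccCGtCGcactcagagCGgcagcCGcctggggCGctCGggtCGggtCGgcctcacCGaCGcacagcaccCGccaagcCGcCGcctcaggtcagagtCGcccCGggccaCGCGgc
Pparg start site 2: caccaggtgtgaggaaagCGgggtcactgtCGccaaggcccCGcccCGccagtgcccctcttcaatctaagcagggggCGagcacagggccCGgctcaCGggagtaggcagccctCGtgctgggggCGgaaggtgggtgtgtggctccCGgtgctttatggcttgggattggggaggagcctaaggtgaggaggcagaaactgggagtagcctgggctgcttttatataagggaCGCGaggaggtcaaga
Pparg start site 3: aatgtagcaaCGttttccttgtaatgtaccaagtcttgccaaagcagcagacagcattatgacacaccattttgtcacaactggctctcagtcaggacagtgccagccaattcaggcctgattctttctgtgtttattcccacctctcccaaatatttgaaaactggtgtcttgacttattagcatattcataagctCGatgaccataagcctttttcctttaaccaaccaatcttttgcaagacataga
Nr1i3: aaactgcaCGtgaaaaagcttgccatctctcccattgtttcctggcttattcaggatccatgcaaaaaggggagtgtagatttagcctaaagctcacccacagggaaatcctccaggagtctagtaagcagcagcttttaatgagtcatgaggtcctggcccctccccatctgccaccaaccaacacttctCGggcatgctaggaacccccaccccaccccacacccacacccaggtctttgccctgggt

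The Ppara window held 27 CG, more than 91.4% of all 32851 promoter windows of this length, whose median was 6. The 3 Pparg windows ranged from 38 CG, more than 98.1% of windows, through 12 CG to 2 CG. The Nr1i3 window held 2 CG, more than 18.8% of windows. Pparg thus had CG-rich and CG-poor start sites. DNA methylation was not analysed here, and the counts do not tell the start sites of a gene apart. RefSeq windows were found for 9 of the 10 receptors, 13 windows in all. The nuclear receptor half-site AGGTCA, searched on both strands, lay in 4 of the 13 windows and in 14% of all windows. Its paired forms AGGTCANAGGTCA, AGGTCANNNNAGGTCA and AGGTCANTGACCT, each of which contains that half-site, lay in 0 of the 13 windows and in 0.0335%, 0.0152% and 0.00609% of all windows. GCGTG, the core that AHR binds, lay in 3 of the 13 windows and in 28.2% of all windows.

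Depth ran from 30213048 to 41852606 counts per library, and the lowest receptor count in any library was 121 (Ppard at 0.1x). The receptors together took 0.0762 to 0.123% of the counts. In every pair of replicates the counts differed by more than sampling noise (chi-square per degree of freedom 16.4 or more). That value was highest in pairs with SD sample 3 (113 and 110, against 29.0 for the other SD pair). Pairs with sample 3 of 0.1x gave 97.1 and 91.3 (against 38.7), and pairs with sample 2 of 1x 76.9 and 60.1 (against 28.4). The MASLD pairs gave 16.4 to 38.5. Counts also varied between libraries with the GC content and exon length of the genes. That trend, fitted to each library's deviation from the mean, explained 19.1% of the variance across genes in sample 3 of 0.1x and 16.5% in sample 2 of 1x, against at most 10.03% in the other libraries. Those libraries are called the strong-trend libraries below, and the main receptor differences at the doses are also given without both.

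The genes lie apart in the mouse genome (mm10, GENCODE). Ppara (ENSMUSG00000022383) is at chr15:85734983-85802819, Pparg (ENSMUSG00000000440) at chr6:115360951-115490399, Nr1i3 (ENSMUSG00000005677) at chr1:171213970-171220701 and Rxra (ENSMUSG00000015846) at chr2:27676440-27762957, all on the plus strand. Ahr (ENSMUSG00000019256) is at chr12:35497974-35535038 and Nr1h4 (ENSMUSG00000047638) at chr10:89454234-89533585, both on the minus strand.

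Levels were compared between receptors as RPKM, reads per kilobase of merged exons, scaled to library size. In SD livers Rxra, the shared partner, stood at 74.0 ± 9.79 RPKM (mean ± SD, n = 3) and Nr1h4 at 58.7 ± 4.11. Nr1h3 followed at 41.9 ± 5.41, Nr1i2 at 31.8 ± 2.95, Nr1i3 at 19.6 ± 7.24 and Ppara at 17.7 ± 3.20. Nr1h2 stood at 7.86 ± 0.241, Pparg at 3.77 ± 0.172, Ahr at 2.701 ± 0.276 and Ppard at 0.667 ± 0.110. Rxra, the bile acid receptor and LXRA thus stood highest, and the other oxysterol receptor, LXRB, stood among the low ones with Pparg, Ahr and Ppard. In this order only Rxra with Nr1h4 and Nr1i3 with Ppara had overlapping samples in SD. In MASLD livers the neighbours that overlapped were Ppara with Nr1i2, Nr1i3 with Pparg, and Pparg with Nr1h2. Averaged over the 12 libraries Rxra lay above 95.1% of the genes tested and Ppard above 30.6%. With the length of the longest transcript in place of merged exons, neighbours changed places in MASLD and 0.1x livers (Pparg and Nr1h2) and in 1x livers (Nr1i2 and Ppara).

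**Figure D1:**
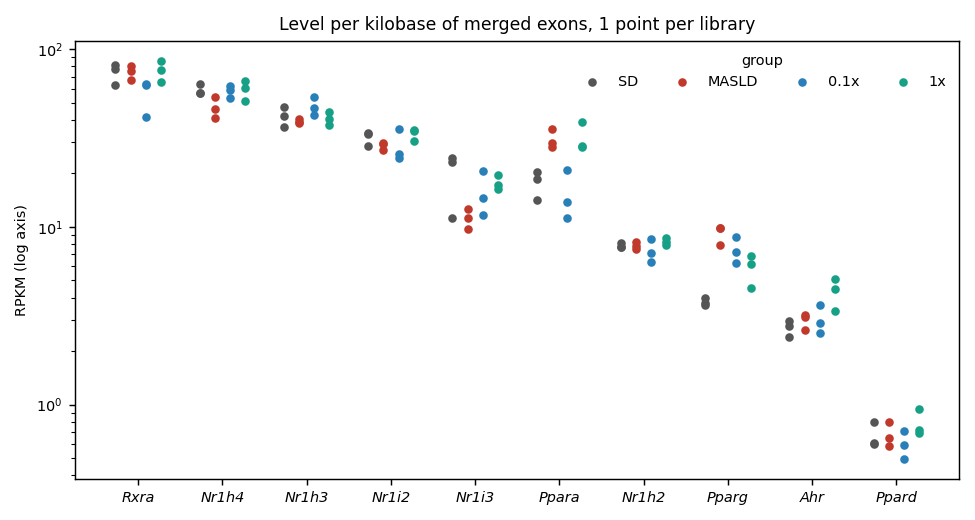
Level of each receptor in RPKM (log axis) in every library, 1 point per library, coloured by group. By group mean Rxra and Nr1h4 stand highest and Ppard lowest in all groups, and Ppara and Pparg are lower in SD than in MASLD livers.

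Ppara had 71.6, 77.6 and 54.0 CPM (counts scaled to library size) in SD samples 3, 4 and 5, and 109, 114 and 136 CPM in MASLD samples 3, 4 and 5. Treated livers held 43.0, 79.9 and 52.6 CPM in samples 1, 3 and 4 of 0.1x, and 150 (149.6), 108 and 109.6 CPM in samples 2, 4 and 5 of 1x. MASLD and 1x livers lay above every SD and 0.1x liver. On the diet Ppara rose 1.76-fold, a log2 fold change of 0.82 ± 0.21 (SE, edgeR quasi-likelihood test, adjusted p = 0.00857). It passed in 12 of 12 fits that each left out 1 library.

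Pparg had 10.98, 10.7 and 11.7 CPM in SD samples and 29.0, 28.9 and 23.5 CPM in MASLD samples. The 0.1x livers held 26.0, 21.4 and 18.5 CPM and the 1x livers 13.3, 18.3 and 20.3 CPM. No SD liver reached the level of any liver on the MASLD diet. The diet raised Pparg 2.44-fold (log2 fold change 1.29 ± 0.16, adjusted p = 4.97e-05), and it passed in 12 of 12 fits without 1 library. Ppard, a PPAR active in many tissues, stood between 3.73 and 7.14 CPM in the 12 libraries, and its difference between the diets was 0.02 (95% confidence interval −0.39 to 0.44).

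Nr1i3 (CAR) had 49.7, 107 and 103 CPM in SD samples 3, 4 and 5 and 56.0, 43.0 and 49.7 CPM in MASLD samples. The 0.1x livers held 51.6, 91.1 and 64.3 CPM and the 1x livers 71.9, 75.6 and 86.7 CPM. SD sample 3 lay within the MASLD range, while the other two SD livers lay far above it. The diet comparison passed at −0.81 ± 0.25 (adjusted p = 0.0237), a 1.75-fold lower level. It no longer passed without SD sample 4 (−0.63, adjusted p = 0.103), SD sample 5 (−0.67, 0.0951), MASLD sample 4 (−0.72, 0.0928) or MASLD sample 5 (−0.81, 0.0599). Without SD sample 3 the difference was −1.09. Nr1i3 overlaps Tomm40l on the opposite strand, and the strand setting of the counting is not given in the sources used here. Tomm40l had 21.1% as many counts as Nr1i3, and it differed by 0.48 ± 0.17 on the diet (adjusted p = 0.0511), opposite in sign to Nr1i3.

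Nr1h4 (FXR) had 146.2, 129.999 and 129.6 CPM in SD livers and 105, 94.9 and 123 CPM in MASLD livers. The groups did not overlap, as for 47.9% of all genes tested, and the difference of −0.33 ± 0.13 did not pass (adjusted p = 0.0629). The dosed livers held 123 to 143 CPM at 0.1x and 118 to 152 CPM at 1x. Nr1h4 passed on the diet without MASLD sample 5 (−0.44, adjusted p = 0.0345), sample 3 of 0.1x (−0.33, 0.0489) or sample 2 of 1x (−0.34, 0.0488), and without both of the latter (−0.33, 0.0328). With all libraries it passed by DESeq2 (−0.35, adjusted p = 0.0346), with RLE factors (−0.35, 0.0498) and with the compared groups alone (−0.33, 0.0464), while after removal of the trend it was −0.21 (0.192).

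Nr1h2, Nr1h3, Nr1i2 and Rxra differed little between the diets. The 95% confidence interval of the log2 difference was −0.24 to 0.24 for Nr1h2, −0.36 to 0.16 for Nr1h3, −0.44 to 0.14 for Nr1i2 and −0.36 to 0.36 for Rxra. Ahr stood at 16.6 ± 1.70 CPM in SD and 18.4 ± 1.94 CPM in MASLD livers, an interval of −0.21 to 0.50. In all 2 of the 10 receptors rose and 1 fell on the diet, where 29.5% of all genes tested passed (15.6% higher, 13.9% lower). The share of receptors that passed was close to that background.

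**Figure D2:**
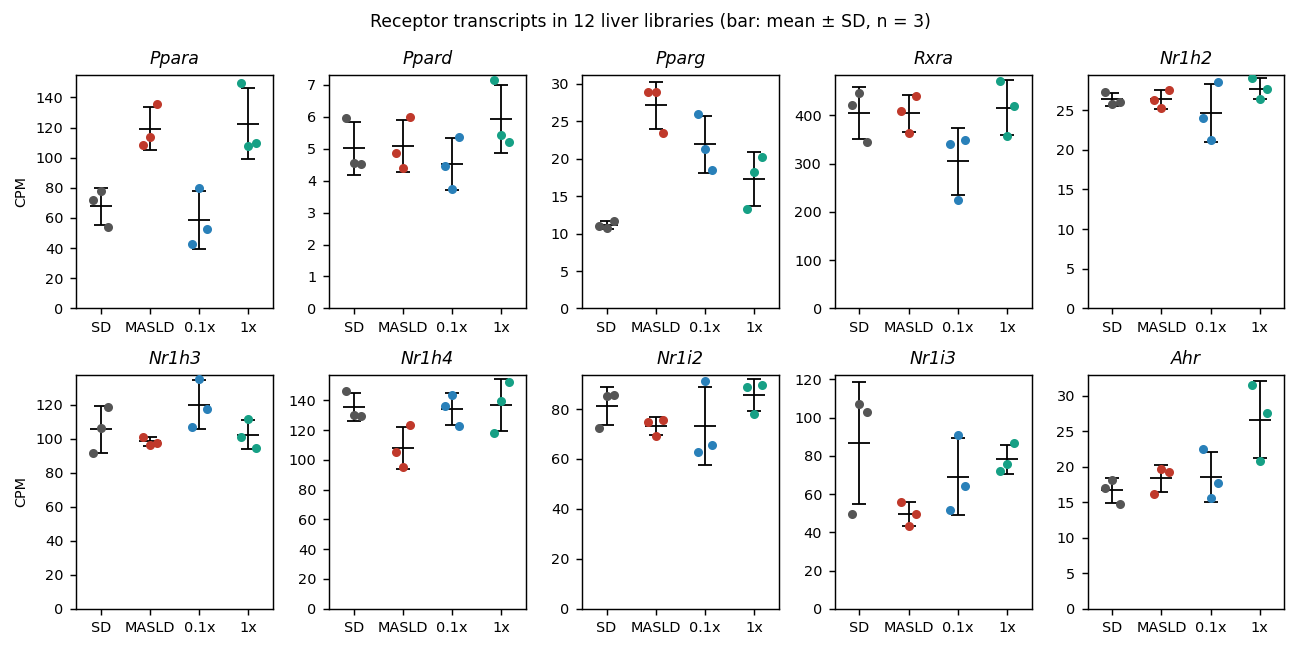
CPM of each receptor in the 12 liver libraries, 1 point per library, with the mean and SD of 3 samples per group as bars, each axis from 0. Ppara is high in MASLD and 1x livers and low in SD and 0.1x livers, Pparg is lowest in SD livers, and 1 SD liver stands far below the other two for Nr1i3.

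At the lower dose Ppara was the only receptor that passed against MASLD, where 13.2% of all genes tested passed in either direction (6.08% higher, 7.09% lower). It fell by 1.03 ± 0.21 on the log2 scale, a 2.04-fold lower level (adjusted p = 0.0116), and passed in 12 of 12 fits without 1 library. Without sample 3 of 0.1x and sample 2 of 1x the difference was −1.31 (adjusted p = 0.00246), and after removal of the trend −0.99 (0.0212). Against SD the 0.1x difference in Ppara did not pass (−0.21, 95% confidence interval −0.65 to 0.23), but without those libraries it did (−0.50, adjusted p = 0.0421). Pparg differed from MASLD by −0.31 (−0.65 to 0.03) and remained above SD by 0.98 ± 0.16 (adjusted p = 0.000836), where 20.7% of all genes passed (9.85% higher, 10.9% lower), and without the strong-trend libraries that difference was 1.00 (adjusted p = 0.000731). It was the 1 receptor of 10 whose 0.1x and SD livers did not overlap, which held for 31.9% of all genes.

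Rxra had 341, 225 (225.5) and 349 CPM at 0.1x and 364 to 439 CPM in MASLD livers. These groups did not overlap, as for 35.5% of all genes tested, but the difference of −0.41 ± 0.17 did not pass (adjusted p = 0.115). Its lowest value was sample 3, a library with a strong GC and length trend. With that trend removed the difference was −0.21 (adjusted p = 0.352), and without sample 3 of 0.1x and sample 2 of 1x −0.22 (0.297). Nr1h3 at 107, 135 and 118 CPM lay above the MASLD livers (96.4 to 101 CPM) without passing (0.29 ± 0.12, adjusted p = 0.123), and without the strong-trend libraries the difference was 0.20 (0.313).

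At the higher dose Pparg alone passed against MASLD, where 3.11% of all genes tested passed (1.49% higher, 1.62% lower). It fell by 0.65 ± 0.16 on the log2 scale, 1.57-fold (adjusted p = 0.0400), and no 1x liver reached a MASLD liver. The call was lost without SD sample 4 (−0.65, adjusted p = 0.0507), MASLD sample 3 (−0.60, 0.172), MASLD sample 4 (−0.60, 0.182), sample 2 of 1x (−0.49, 0.141) or sample 4 of 1x (−0.68, 0.0956). Without sample 3 of 0.1x and sample 2 of 1x it was −0.49 (adjusted p = 0.0984), and with the trend removed −0.66 (0.0262). Pparg at 1x still stood above SD by 0.63 ± 0.16 (adjusted p = 0.0134), which did not pass without sample 5 of 1x (0.51, adjusted p = 0.0691). Both doses were compared with the same MASLD livers, so their differences from MASLD share those samples.

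Ahr had 17.0, 18.1 and 14.8 CPM in SD, 16.1, 19.7 and 19.2 in MASLD, 22.5, 15.6 and 17.7 at 0.1x, and 31.5, 20.8 and 27.6 CPM at 1x. Every 1x liver lay above every MASLD and SD liver, and 1 liver at 0.1x lay within the 1x range. Against SD, where 19.8% of all genes passed (9.91% higher, 9.84% lower), 3 of 10 receptors rose, and these 3 had groups that did not overlap, as had 37.2% of all genes. Of them Ahr rose by 0.68 ± 0.17 (adjusted p = 0.0103), but not without SD sample 5 (0.60, adjusted p = 0.0518) or sample 2 of 1x (0.53, 0.0620). Against MASLD the difference was 0.54 ± 0.17 (adjusted p = 0.0964) and against 0.1x 0.52 ± 0.17 (0.0518), which passed without sample 1 of 0.1x (0.68, adjusted p = 0.0357) or sample 4 of 1x (0.68, 0.0190). Without the strong-trend libraries the Ahr difference was 0.26 against 0.1x (adjusted p = 0.420), 0.40 against MASLD (0.197) and 0.53 against SD (0.0330). After removal of the trend it was 0.39 against 0.1x (adjusted p = 0.126). The groups did not overlap against MASLD for Pparg, Nr1i2, Nr1i3 and Ahr, 4 of 10 receptors, where this held for 27.8% of all genes.

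Nr1i3 at 1x lay above MASLD in 3 of 3 samples without passing (0.66 ± 0.25, adjusted p = 0.175). It passed without SD sample 3 (0.66, 0.0477), with the compared groups alone (0.66, 0.00848) and with no filter (0.66, 0.000267). After removal of the trend it did not pass (0.68, 0.159). Nr1i3 at 0.1x was lower than SD by 0.33 without passing, and passed without SD sample 3 (−0.61, adjusted p = 0.0393). Nr1i2 did not pass in any comparison, but without sample 3 of 0.1x it passed for 0.1x against SD (−0.34, adjusted p = 0.0468) and for 1x against 0.1x (0.42, 0.0358). Nr1h4 differed from MASLD by 0.34 ± 0.13 (adjusted p = 0.169) at 1x and by 0.31 ± 0.13 (0.105) at 0.1x. Without the strong-trend libraries these were 0.44 (adjusted p = 0.0798) and 0.27 (0.172), and Nr1i3 differed from MASLD at 1x by 0.71 (0.151). The mean CPM of Nr1h4 and of Nr1i3 lay nearer to SD at both doses than in MASLD livers, by differences that did not pass with all libraries and the reported settings. Ppara at 1x was 0.04 from MASLD (95% confidence interval −0.40 to 0.47) and above SD by 0.85 ± 0.21 (adjusted p = 0.00956). The latter was lost without SD sample 5 (0.71, adjusted p = 0.0519) or sample 2 of 1x (0.68, 0.0594).

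Between the doses Ppara was the receptor that passed, where 13.0% of all genes tested did (7.13% higher, 5.86% lower). Ppara and Rxra, 2 of 10, had groups that did not overlap, as did 30.8% of all genes. Ppara stood 2.09-fold higher at 1x than at 0.1x (log2 fold change 1.06 ± 0.21, adjusted p = 0.00879). Without sample 2 of 1x the difference was 0.89 (adjusted p = 0.0578), and without that library and sample 3 of 0.1x it was 1.18 (adjusted p = 0.0132). After removal of the trend it was 1.04 (0.0145).

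**Figure D3:**
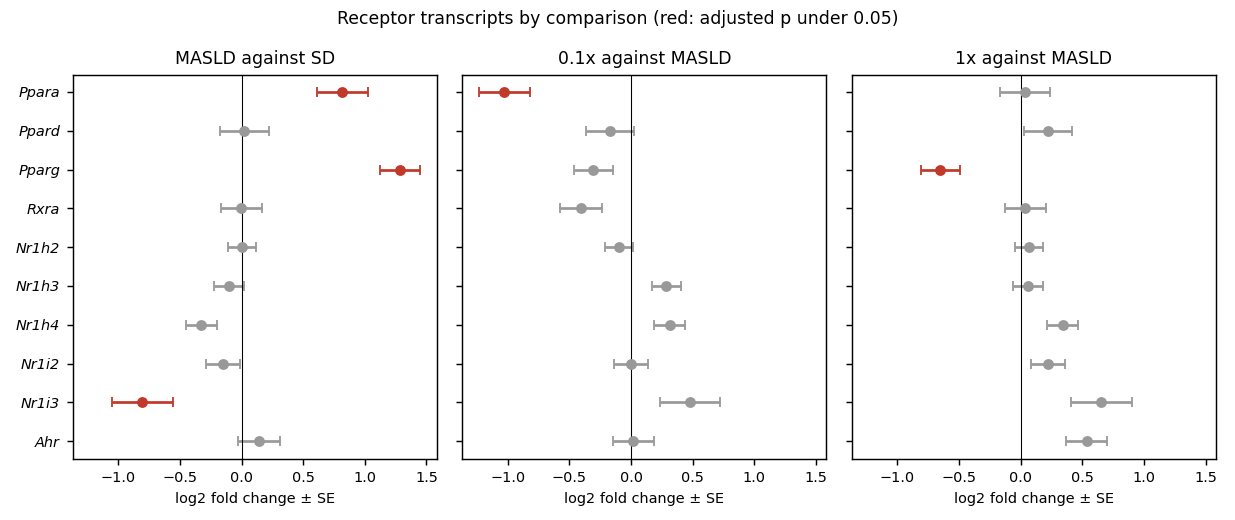
Log2 fold change of each receptor (points) with its SE (bars) for MASLD against SD and for each dose against MASLD, red at an adjusted p under 0.05. Ppara stands at 0.82 on the diet, at −1.03 at 0.1x and at 0.04 at 1x, and Pparg at 1.29 on the diet and −0.65 at 1x.

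**Figure D4:**
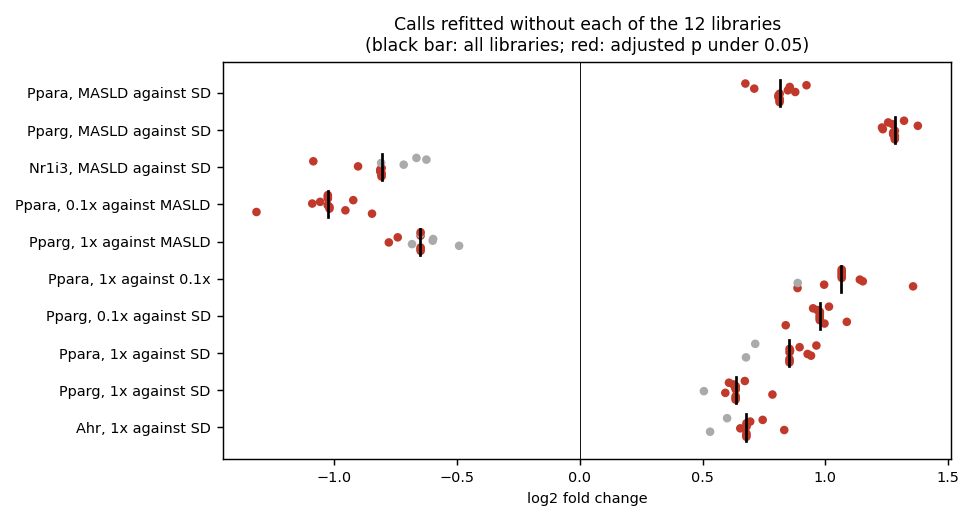
Log2 fold change of each result that passed, refitted without each of the 12 libraries, 1 point per fit, with the fit of all libraries as a black bar. No fit changes a direction, and Nr1i3 on the diet and Pparg at 1x each lose the call in several fits.

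The share of Ppara in the receptor pool follows in part from the levels given above, because the pool's sum includes Ppara. Over the 8 receptors that pair with RXR, SD livers summed to 182 ± 9.76 RPKM and MASLD livers to 175 ± 10.8, while 0.1x livers summed to 181 ± 22.98 and 1x livers to 198 ± 4.19. Ppara made up 7.54 to 10.9% of that sum in SD, 16.2 to 19.1% in MASLD, 6.77 to 10.1% at 0.1x and 14.1 to 19.9% at 1x. The MASLD and 1x ranges lay above the SD and 0.1x ranges, as did the Ppara levels themselves. The ratio of Ppara to Pparg in RPKM was 3.56 to 5.58 in SD, 2.89 to 4.45 in MASLD, 1.28 to 2.88 at 0.1x and 4.16 to 8.65 at 1x, so the ranges of the doses did not meet. The ratio of Rxra to this sum ranged in SD from 0.338 to 0.452, in MASLD from 0.407 to 0.433, at 0.1x from 0.199 to 0.377 and at 1x from 0.334 to 0.440, and the lowest was again sample 3 of 0.1x.

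Among the other RXRs and RXR partners 1 of 7 tested genes rose on the diet, where 15.6% of all genes were higher. It was Rarb, a retinoic acid receptor (0.79 ± 0.23, adjusted p = 0.0171), and Vdr did not pass the filter. Rarb did not pass without SD sample 5 or MASLD sample 4 (adjusted p up to 0.103). At 0.1x Thrb, the thyroid hormone receptor of liver, fell by 0.56 ± 0.16 (adjusted p = 0.0326), but not with the trend removed or without MASLD sample 3, 4 or 5 or sample 1 or 4 of 0.1x (adjusted p up to 0.1497 without 1 library). Rxrg stood above SD at 1x by 1.08 ± 0.22 (adjusted p = 0.00331), in 12 of 12 fits without 1 library. Among 12 other hepatic nuclear receptors 3 fell and 0 rose on the diet (0 rose at an unadjusted p under 0.05 and by DESeq2), where 13.9% of all genes were lower, among them Hnf4a, a factor that maintains hepatocyte identity (−0.65 ± 0.14, adjusted p = 0.00336). Without MASLD sample 3 or 4 1 fell. At 1x against MASLD 2 of 12 rose, where 1.49% of all genes were higher. Among these was the oestrogen receptor Esr1 (1.24 ± 0.28, adjusted p = 0.0303). The Esr1 call was lost when MASLD sample 3 or 4 or sample 2 or 4 of 1x was left out (adjusted p up to 0.175).

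Targets of the receptors were counted from lists of textbook targets, which were chosen with earlier results of these data known and are read only beside the background. Of 28 PPARA targets 18 rose and 0 fell on the diet, with a median log2 fold change of 0.66 against 0.03 over all genes, of which 15.6% were higher and 13.9% lower (2 fell at an unadjusted p under 0.05 and by DESeq2). Without SD sample 3 2 fell, and without sample 3 of 0.1x or sample 2 of 1x 1 did. Ehhadh, a peroxisomal enzyme of fatty acid oxidation, went from 306 ± 18.1 to 1182 ± 9.17 CPM (1.95 ± 0.11, adjusted p = 5.56e-08). Vnn1, a pantetheinase, rose by 3.03 ± 0.18 (adjusted p = 6.36e-08) and Cyp4a14 by 2.56 ± 0.54 (0.00282). At 0.1x, where Ppara did not pass against SD, 16 of 28 targets still stood above SD and 1 below, with Ehhadh at 2.09 ± 0.11 above SD (adjusted p = 6.84e-08). In that comparison 9.85% of all genes were higher and 10.9% lower.

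Against MASLD the PPARA targets moved little at either dose. Of all genes tested 6.08% were higher and 7.09% lower at 0.1x, and 1.49% and 1.62% at 1x. At 0.1x 1 of 28 rose and 1 fell, with a median of 0.03, and at 1x 0 rose and 1 fell, with a median of −0.01 (3 rose at an unadjusted p under 0.05, 2 by DESeq2). Without SD sample 3 or sample 3 of 0.1x 2 rose at 1x, and without SD sample 5, sample 1 of 0.1x or sample 2 of 1x 1 rose. Pdk4, which holds back glucose oxidation, fell at 0.1x by 1.03 ± 0.32 (adjusted p = 0.0442), and this did not pass after removal of the trend or without SD sample 4 or 5, MASLD sample 3, 4 or 5, or sample 1 or 3 of 0.1x (adjusted p up to 0.144 without 1 library). Fabp1, the liver fatty acid binding protein, rose at 0.1x by 0.73 ± 0.19 (0.0245), but not with the trend removed or without MASLD sample 3, 4 or 5 or sample 3 of 0.1x (adjusted p up to 0.0827 without 1 library). Plin2, which coats lipid droplets, fell at 1x from 1146 ± 49.9 to 647 ± 81.9 CPM (−0.82 ± 0.13, adjusted p = 0.00473), in 12 of 12 fits without 1 library.

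Of 11 tested PPARG targets 8 rose and 1 fell on the diet, with a median of 2.85 (all genes 15.6% higher, 13.9% lower). Cidec, a lipid droplet fusion protein, stood at 2.954 ± 1.351 CPM in SD and 235 ± 13.95 CPM in MASLD livers (6.32 ± 0.33, adjusted p = 3.60e-08). Fabp4, a fatty acid carrier of adipocytes and macrophages, rose by 1.55 ± 0.16 (9.05e-06), and Mogat1, which makes diacylglycerol, by 3.11 ± 0.24 (5.91e-07). Aqp7, a glycerol channel, had 0 counts in SD, so MASLD livers were at least 106-fold higher, against a floor of 3 counts over the SD group, and with that bound (6.73 on the log2 scale) the median stays at Cd36, 2.85. Pck1, an enzyme of glucose synthesis, fell (−1.36 ± 0.24, 0.000649).

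At 1x against MASLD 2 of these 11 fell and 1 rose, with a median of −0.63 against −0.0048 over all genes, of which 1.49% were higher and 1.62% lower. Fabp4 fell by 0.81 ± 0.16 (adjusted p = 0.0133), but not without MASLD sample 3 or 4 or sample 2 or 4 of 1x (adjusted p up to 0.0705). Mogat1 fell by 1.02 ± 0.20 (0.0169), but not without MASLD sample 3 or sample 2 of 1x (adjusted p up to 0.0877). Pck1 rose by 1.01 ± 0.23 (0.0322), but not without MASLD sample 3 or 4 or sample 2 or 5 of 1x (adjusted p up to 0.180). The count of targets that fell was 0 without MASLD sample 3 or sample 2 of 1x, 1 without MASLD sample 4 or sample 4 of 1x, and 4 without SD sample 3. At 0.1x against MASLD 1 of 11 fell, where 7.09% of all genes were lower. It was Plin4, a lipid droplet protein (−1.39 ± 0.34, 0.0195), but not without MASLD sample 3 or 5 or sample 1 of 0.1x (adjusted p up to 0.0680).

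Fabp4 and Pparg are also expressed by macrophages, so markers of these cells were counted too. On the diet 15.6% of all genes tested were higher and 13.9% lower, and the diet counts of markers below stand beside these shares. Of 11 Kupffer and macrophage markers 9 rose on the diet. Their summed level was 129 to 195 CPM in SD, 261 to 398 CPM in MASLD, 316 to 364 CPM at 0.1x and 139 to 264 CPM at 1x. At 1x 2 of 11 fell and 1 rose against MASLD, where 1.49% of all genes were higher and 1.62% lower. The 1x range of the sum overlapped the SD range. It met the MASLD range through sample 2 of 1x alone (264 CPM, against 261 CPM in MASLD sample 5). Whether Pparg followed macrophage content was not tested. Adipocytes hold much PPARG. On a list of 6 adipocyte markers Lep was at 0 in all 4 groups, while Adipoq, Retn and Plin1 averaged at most 0.0459 CPM in any group. The other markers on that list, Fabp4 and Cfd, were detected in every group. Fabp4, whose rise is given above, stood at 4.77 ± 0.389 CPM in SD and 13.96 ± 1.03 CPM in MASLD livers. Cfd had 0.786 ± 0.297 CPM in SD and 2.57 ± 1.34 CPM in MASLD livers (1.70 ± 0.81, adjusted p = 0.125). At 1x it had 5.46 ± 5.49 CPM (2.78 ± 0.80 against SD, adjusted p = 0.0235). The summed adipocyte list was 4.84 to 6.10 CPM in SD, 14.8 to 19.3 CPM in MASLD, 13.2 to 16.5 CPM at 0.1x and 7.31 to 20.95 CPM at 1x. Hepatocyte markers fell on the diet (10 of 12), with a summed level of 205360 to 213336 CPM in SD and 106232 to 129187 CPM in MASLD livers. All 12 were detected in every group, Alb highest at 120769 CPM in SD, as the labelled tissue would have. Stellate cell markers rose on the diet (6 of 8; 278 to 299 CPM in SD, 371 to 401 in MASLD), as did 4 of 8 sinusoidal endothelial markers (113 to 151 and 172 to 197 CPM) and 4 of 7 cholangiocyte markers, of which 1 fell (22.0 to 30.4 and 42.4 to 154 CPM). Of 6 tested T and NK cell markers 1 fell, and their sum stayed between 1.54 and 6.25 CPM in all livers. In these bulk samples fewer cells of a type and less RNA per cell cannot be told apart, and the part of cell numbers in the receptor results was not tested.

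Of 14 LXR targets 8 rose and 0 fell on the diet, where 15.6% of all genes were higher, with a median of 0.71 (0 fell at an unadjusted p under 0.05 and by DESeq2), and neither Nr1h3 nor Nr1h2 passed. Scd1, which desaturates fatty acids, rose by 2.21 ± 0.20 (adjusted p = 2.27e-06), and Srebf1, the lipogenic transcription factor, by 0.71 ± 0.19 (0.0111; not without SD sample 5, 0.0504). Against MASLD 1 of 14 fell at 0.1x, where 7.09% of all genes were lower. At 1x 0 passed in edgeR's quasi-likelihood test, 2 rose and 3 fell at an unadjusted p under 0.05, and DESeq2 called 1, which fell. Without SD sample 3 or sample 3 of 0.1x 1 fell at 1x, and without sample 3 of 0.1x 2 fell at 0.1x.

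Abca1, the cholesterol efflux pump, moved between groups as Ppara did. It had 65.7, 63.5 and 48.8 CPM in SD, 114.5, 122.5 and 115.2 in MASLD, 62.7, 49.7 and 56.2 at 0.1x, and 137, 108 and 106 CPM at 1x. The SD and 0.1x livers did not overlap the MASLD and 1x livers. Abca1 rose on the diet by 0.98 ± 0.14 (adjusted p = 0.000115), fell at 0.1x by 1.06 ± 0.14 (0.00262), and stood higher at 1x than at 0.1x by 1.06 ± 0.14 (0.00178), each in 12 of 12 fits without 1 library.

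Of 8 tested FXR targets 1 rose and 4 fell on the diet, with a median of −0.40 (all genes 15.6% higher, 13.9% lower, median 0.03). Abcb4, the phospholipid pump of bile, rose by 1.04 ± 0.13 (adjusted p = 4.16e-05), and Slc27a5, which activates bile acids, fell by 0.91 ± 0.15 (0.000426). Nr0b2 (SHP), the repressor that FXR induces, differed by −0.04 ± 0.33, and Abcb11, the bile salt pump, by −0.32 ± 0.16 (0.149). Against MASLD 1 of 8 rose at 0.1x, Baat, which conjugates bile acids (0.37 ± 0.11, 0.0467), which did not pass with the trend removed or in 8 of the 12 fits without 1 library (adjusted p in those up to 0.146). At 1x 0 of 8 passed against MASLD (edgeR and DESeq2), and 2 fell at an unadjusted p under 0.05. Among the 3 genes repressed through SHP 1 fell on the diet, 1 rose at 0.1x and 2 rose at 1x against MASLD. Against MASLD 6.08% of all genes were higher at 0.1x and 1.49% at 1x. Slc10a1, which takes up bile acids, fell on the diet (−0.88 ± 0.17, 0.00122) and rose at 0.1x (0.67 ± 0.17, 0.0213) and at 1x (0.69 ± 0.17, 0.0367). It did not pass at either dose after removal of the trend or without MASLD sample 3 or 4, at 0.1x without sample 1 of 0.1x, or at 1x without any 1 of the 1x libraries. Also at 1x, Cyp7a1, which starts bile acid synthesis, went from 38.9 ± 5.10 to 97.0 ± 45.7 CPM at 1x (1.32 ± 0.33, adjusted p = 0.0476). The number that rose at 1x was 0 without MASLD sample 3 or 4 or sample 2 or 4 of 1x, and 1 without MASLD sample 5 or sample 5 of 1x.

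Of 19 targets of PXR and CAR 3 rose and 8 fell on the diet, with a median of −0.38, where 15.6% of all genes were higher and 13.9% lower. Several of them belong to Cyp2c and Cyp3a families of near-identical genes whose counts are uncertain. Ces2a, a drug-hydrolysing esterase, fell from 638 ± 33.3 to 156 ± 21.7 CPM (−2.03 ± 0.15, adjusted p = 5.91e-07), and Cyp2c54 fell by 3.73 ± 0.30 (1.03e-06). At 1x against MASLD 4 of 19 rose and 1 fell, where 1.49% of all genes were higher and 1.62% lower. Ces2a differed by 0.81 ± 0.15 (0.0113) and Cyp2c54 by 1.58 ± 0.28 (0.00905). Both failed the test without MASLD sample 3 or 4 (adjusted p up to 0.0751), where 0 of 19 rose. The number that rose was 2 without sample 2 of 1x and 6 without sample 3 of 0.1x. At 0.1x against MASLD 2 of 19 rose and 3 fell, where 6.08% of all genes were higher and 7.09% lower. Ces2a rose (0.80 ± 0.15, 0.0101) in 12 of 12 fits without 1 library, and Cyp2c54 rose by 1.29 ± 0.28 (0.0135). Cyp2b10, described next, fell, as did the exporter Abcc3 (−0.65 ± 0.15, 0.0160) and the uptake carrier Slco1a4 (−1.16 ± 0.29, 0.0200). The calls of Cyp2c54, Abcc3 and Slco1a4 were lost after removal of the trend and without MASLD sample 3 or 4, and that of Slco1a4 also without MASLD sample 5 or sample 1 or 3 of 0.1x (adjusted p up to 0.0706 without 1 library). After removal of the trend 1 rose and 1 fell. Without MASLD sample 3 or 4 1 rose and 1 fell, and without MASLD sample 5 1 fell.

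Cyp3a11, the model PXR target, did not pass in any of the 6 comparisons (adjusted p from 0.0559 to 0.764). Cyp2b10, the model CAR target, had 12.4, 55.8 and 34.9 CPM in SD, 17.6, 7.77 and 39.8 in MASLD, 1.05, 4.47 and 5.17 at 0.1x, and 14.1, 13.4 and 22.3 CPM at 1x. All 0.1x livers lay below all others. Cyp2b10 fell at 0.1x against MASLD (−2.61 ± 0.63, adjusted p = 0.0187), but not without MASLD sample 5 or sample 1 of 0.1x (adjusted p up to 0.0838). It stood lower at 0.1x than in SD (−3.27 ± 0.64, 0.00244) in 12 of 12 fits without 1 library. Nr1i3 itself did not pass in either of these comparisons.

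Of 6 tested AHR targets 1 rose and 1 fell on the diet, in all close to the 29.5% of all genes that passed. Cyp1a2, a liver cytochrome that AHR induces, went from 1109 ± 9.80 to 252 ± 24.0 CPM (−2.14 ± 0.22, adjusted p = 7.47e-06), and Nqo1, a quinone reductase, rose by 0.86 ± 0.18 (0.00261). At 1x, where Ahr stood highest, 0 of 6 passed against MASLD, 2 fell at an unadjusted p under 0.05 and 1 by DESeq2. Without SD sample 3 or sample 1 or 3 of 0.1x 1 fell. Here Cyp1a1, the most AHR-dependent of these genes, differed by −1.04 ± 0.27 (0.0523). Its level was low, at 0.821 ± 0.202 CPM at 1x, 1.70 ± 0.0534 in MASLD and 1.66 ± 0.292 CPM in SD. Against SD it fell by 1.01 ± 0.28 (0.0185), but not without SD sample 5 or sample 4 or 5 of 1x (adjusted p up to 0.0843). The partner Arnt had 20.8, 23.1 and 19.8 CPM in SD, 21.9, 26.0 and 25.1 in MASLD, 16.6, 15.6 and 16.5 at 0.1x, and 31.5, 23.7 and 25.9 CPM at 1x, so the 0.1x livers lay below all others. Arnt fell at 0.1x against MASLD by 0.58 ± 0.12 (0.0133), but not without MASLD sample 4 or 5 (adjusted p up to 0.0601). It stood higher at 1x than at 0.1x by 0.73 ± 0.12 (0.00574) in 12 of 12 fits without 1 library.

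Of 9 coactivators, proteins that receptors recruit to open chromatin, 4 fell at 0.1x against MASLD, where 7.09% of all genes were lower, with a median of −0.56 against −0.02 over all genes. Ncoa2 went from 29.0 ± 1.88 to 16.7 ± 3.26 CPM (−0.79 ± 0.18, adjusted p = 0.0162) and Ncoa3 from 14.4 ± 0.715 to 9.002 ± 1.63 CPM (−0.68 ± 0.14, 0.0125). After removal of the trend 1 of 9 fell. Without sample 3 of 0.1x and sample 2 of 1x 2 fell, and without any 1 of the MASLD libraries 1 or 2. Leaving out sample 1 or 3 of 0.1x or sample 2 or 5 of 1x also left 2. Of 8 corepressors, which hold back the activity of receptors, 2 fell at 0.1x, Ncor1 (−0.56 ± 0.12, 0.0145) and Nrip1 (−0.66 ± 0.15, 0.0157), where 7.09% of all genes were lower, and with the trend removed 0 fell. Without MASLD sample 4 or without MASLD sample 5 it was 1.

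Between the doses 4 coactivators and 2 corepressors stood higher at 1x, where 7.13% of all genes did, and without sample 2 of 1x these counts were 0 and 1. On the diet 1 coactivator fell, Ppargc1b (−0.64 ± 0.23, adjusted p = 0.0450), and 1 corepressor rose, Nrip1 (0.42 ± 0.15, 0.0484), and each lost the call when any of several libraries was left out. Of all genes 15.6% were higher and 13.9% lower on the diet.

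**Figure D5:**
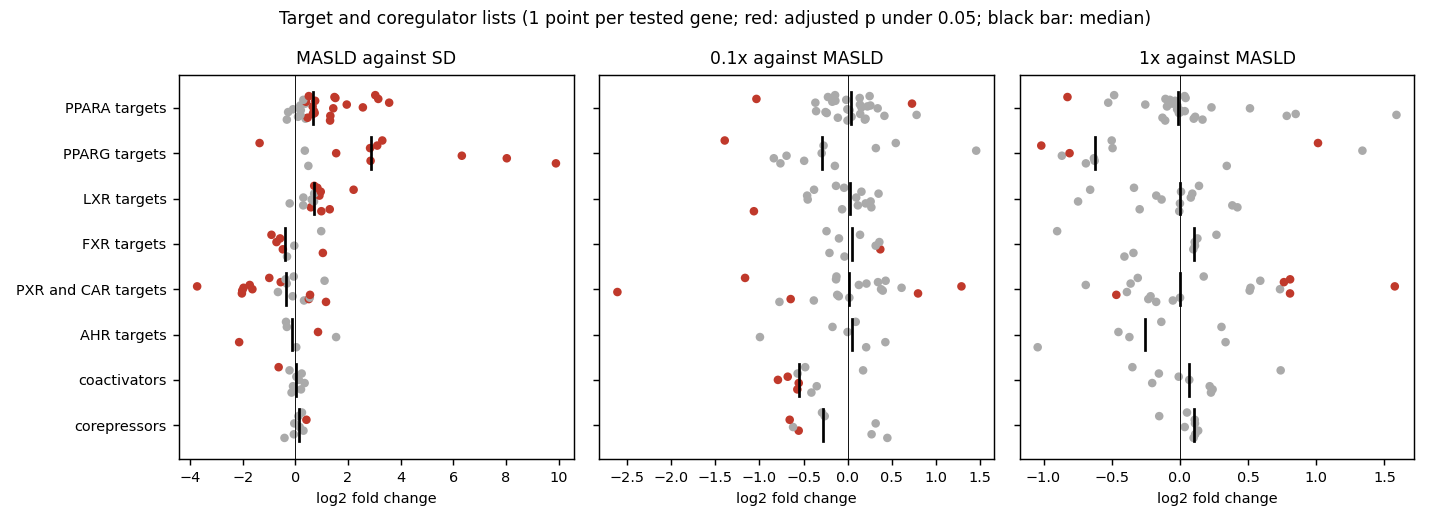
Log2 fold change of every tested gene on the target and coregulator lists in 3 comparisons, 1 point per gene, red at an adjusted p under 0.05, with the median of each list as a black bar. PPARA, PPARG and LXR targets lie mostly above 0 on the diet, PXR and CAR targets mostly below, and the medians of most lists lie near 0 at both doses against MASLD.

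The genes whose pattern over the 12 libraries was nearest to each receptor that passed were found among 10640 protein-coding genes, by the root mean square difference of centred log2 CPM. For Ppara, which itself deviated by 0.55 from its mean, they were Kif3b (0.17), Atm (0.20) and Usp12 (0.23), against a median of 0.60 over all candidates. For Pparg, with 0.51 of its own, they were Igsf11 (0.16), Tnfrsf19 (0.19) and Entpd5 (0.19), against 0.57. For Nr1i3, with 0.43, they were Atp23 (0.16), Ppp1r15a (0.20) and Sirt3 (0.21), against 0.50, and for Ahr, with 0.31, Uhrf1bp1l (0.12), Polr2b (0.14) and Plcg1 (0.14), against 0.40. None of these genes belongs to the target lists. The libraries share groups and depth, so likeness across them is a description.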

How the data were processed

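RNA was measured in 12 mouse liver samples, 4 groups of 3, taken from the labels on diet and treatment. Stranded libraries of polyadenylated RNA were read in pairs, per the labels' protocols. Reads were aligned with STAR 2.7.3a to mm10, per the submitters' processing notes. How reads were counted (tool, strand, annotation) is not given in the sources used here. Whole-number counts per gene were deposited by the authors, and 0 columns lay outside the samples. Columns were tied to samples by title or library name, and 1 title gives 5 where the library name gives 8. Depth ran from 30213048 to 41852606 counts per library.

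CPM, RPKM and all tests were computed here from the deposited counts. GENCODE vM21 gave symbols, positions (mm10) and exon lengths for 55230 of 55471 IDs. In R 4.3.3 with edgeR 4.0.16, filterByExpr kept 13866 of the 22984 genes that had a count. TMM factors scaled the libraries, which shared 1 quasi-likelihood fit. Contrasts were tested two-sided, with Benjamini-Hochberg adjustment over all genes tested and a threshold of 0.05. SE is the absolute log2 fold change over the square root of F. The fit was tested on simulated counts. A prior count of 2 was used for log2 CPM.

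The members, lists and tests were chosen with earlier results of these data known. Named were all receptors, per list the preset model targets and up to 2 genes in each direction, lowest adjusted p first, and for each receptor that passed the 3 genes nearest to it among those averaging 1 CPM or more. Alternatives were RLE and upper-quartile factors, DESeq2 1.42.0, no filter, a filter at 1 CPM, fits of the compared groups, the replicate block, each library left out, and removal of a trend with GC content (of the longest transcript, in place of merged exons, since no genome was used) and exon length, by splines with 4 degrees of freedom for 13855 genes. Runs without both libraries of strongest trend, and trend removal that also shifts each library's mean, were added with the data already seen. The trend was first removed with each library's mean shift included. It was then centred, after that first version was seen, and both are reported. Promoter windows came from RefSeq (GRCm38.p6). Results for some genes on the lists are not reported here.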

Additional observations from a re-analysis of the deposited data

Results flagged for a closer look

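Ppara was the receptor whose effects against MASLD differed between the doses by a direct test. The difference of those effects, which is the 1x livers against the 0.1x livers, was 1.06 on the log2 scale (edgeR quasi-likelihood test, adjusted p = 0.00879), with all 3 samples of 1x above all 3 of 0.1x. Without sample 2 of 1x it was 0.89 (adjusted p = 0.0578). With same-numbered samples as a replicate block it was 0.80 (0.312). In that fit sample 1 of 0.1x and sample 2 of 1x, whose numbers occur in no other group, do not inform the comparison. Sample 5 of 1x was matched by the number in its title, and its library name gives a different number. If the library name is right, that match is false, and the block value of Ppara cannot be relied on.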

How the results depend on the processing

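Of 1320 receptor values under the alternatives, 1190 kept direction and call, 21 lost the call, 26 gained it and 83 changed sign, with 0 of the last called in either fit. Receptor counts past the threshold moved most with no filter, to 3 for 0.1x against MASLD, 3 for 1x against MASLD, 3 for 1x against 0.1x and 2 for 0.1x against SD. With the replicate block they were 0, 0, 0 and 1, and for 1x against SD 1. For the diet the count was 3, and 2 to 4 under the alternatives. DESeq2 gave 2 for 1x against MASLD and 2 for 1x against 0.1x. Chosen after seeing the data, the fit without both libraries of strongest trend gave 0 for 1x against MASLD and 3 for 0.1x against SD, and trend removal that was not centred gave 2 for 1x against MASLD. The compared groups alone gave 2 for 1x against MASLD. Fits without 1 library gave 0 to 2 for 1x against MASLD and for 1x against 0.1x, 1 to 2 for 0.1x against SD and 1 to 3 for 1x against SD. The cause was not tested.

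Same-numbered samples did not deviate together over the genes tested (correlations from −0.215 to 0.0757). With so few samples per group, these correlations cannot decide whether the number marks a shared batch. Under the replicate block Ppara did not pass at 0.1x (−0.89, adjusted p = 0.0685), Pparg at 1x (−0.46, 0.284), Ppara at 1x against 0.1x (0.80, 0.312) and against SD (0.73, 0.0587), nor Ahr at 1x against SD (0.49, 0.129). Over all genes the calls for MASLD against SD, 0.1x against MASLD, 1x against MASLD, 1x against 0.1x, 0.1x against SD and 1x against SD were 4085, 1826, 431, 1802, 2872 and 2739. The block gave 33, 53, 0, 1379 and 1122 for the last 5 of these. It gives sample 1 of 0.1x and sample 2 of 1x each a term of its own, so its comparisons rest on the other libraries. The block and the correlations both number sample 5 of 1x by its title, and its library name gives a different number. Which number is right was not tested, so the block results hold only if the title is right. Trend removal gave 781 for 0.1x against MASLD and 872 for 1x against 0.1x (852 and 787 when not centred), and the compared groups alone 1013, 744 and 1660 for 1x against MASLD, 1x against 0.1x and 0.1x against SD. For 1x against MASLD DESeq2 gave 800, no filter 1131 and fits without 1 library 83 to 661. Without MASLD sample 4 the diet gave 2654 and 0.1x against MASLD 382, and without sample 2 of 1x the doses differed in 210 genes. For 1x against 0.1x the fit without both libraries of strongest trend gave 260. Trend removal that was not centred shifted the median of all genes on the diet by −0.13 and called 1592 higher and 2912 lower, against 2164 and 1921.

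The log2 differences that changed sign reached at most 0.345 in size with all libraries and the reported settings (Pparg for 1x against 0.1x, −0.35) and 0.224 under the alternatives. With the GC and length trend removed they were Ppard −0.12 for MASLD against SD and Ppard 0.077 for 0.1x against MASLD and Rxra −0.042, Nr1h3 0.038 for 1x against SD. With that trend removed and not centred they were Ppard −0.22, Nr1h2 −0.10, Ahr −0.078 for MASLD against SD and Ppard 0.12, Nr1h2 0.034 for 0.1x against MASLD and Rxra −0.10 for 1x against SD. With upper-quartile factors they were Rxra 0.011 for MASLD against SD and Nr1i2 0.032 for 0.1x against MASLD and Nr1h4 −0.021 for 1x against 0.1x and Nr1h4 0.029 for 0.1x against SD. With no filter they were Rxra 0.0062 for MASLD against SD and Ahr −0.0058 for 0.1x against MASLD. With a filter at 1 CPM they were Rxra 0.022 for MASLD against SD and Nr1i2 0.0031 for 0.1x against MASLD and Nr1h4 0.012 for 0.1x against SD. With the replicate block they were Rxra 0.00092, Nr1h2 −0.0011 for MASLD against SD and Nr1i2 0.13, Ahr −0.11 for 0.1x against MASLD and Ppara −0.092, Rxra −0.10 for 1x against MASLD and Pparg 0.0032, Nr1i3 −0.059 for 1x against 0.1x and Nr1h4 0.00088 for 0.1x against SD and Rxra −0.10 for 1x against SD. With RLE factors they were Nr1h2 −0.022 for MASLD against SD and Nr1i2 0.018 for 0.1x against MASLD and Nr1h4 −0.0024 for 1x against SD. With DESeq2 they were Nr1h2 −0.022 for MASLD against SD and Nr1i2 0.015 for 0.1x against MASLD and Nr1h4 −0.00079 for 1x against SD. With the compared groups alone they were Nr1h2 −0.0030 for MASLD against SD and Nr1i2 0.029 for 0.1x against MASLD. Without both libraries of strongest trend they were Nr1h2 −0.0079 for MASLD against SD and Ppara −0.13, Rxra −0.058 for 1x against MASLD and Rxra −0.066 for 1x against SD.
Over fits without 1 library the ranges that crossed 0 were Ppard for MASLD against SD −0.11 to 0.16, Rxra for MASLD against SD −0.11 to 0.075, Nr1h2 for MASLD against SD −0.036 to 0.027, Nr1i2 for 0.1x against MASLD −0.19 to 0.10, Ahr for 0.1x against MASLD −0.14 to 0.13, Ppara for 1x against MASLD −0.13 to 0.14, Rxra for 1x against MASLD −0.059 to 0.15, Nr1h4 for 1x against 0.1x −0.055 to 0.12, Nr1h4 for 0.1x against SD −0.064 to 0.046, Ahr for 0.1x against SD −0.0028 to 0.27, Rxra for 1x against SD −0.067 to 0.14, Nr1h3 for 1x against SD −0.14 to 0.051, Nr1h4 for 1x against SD −0.070 to 0.10, Nr1i2 for 1x against SD −0.0010 to 0.14, Nr1i3 for 1x against SD −0.43 to 0.033.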
